A study of Mus musculus with 15 samples.

Results

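Interferon-stimulated genes were followed as a set of 38 genes, of the 22032 gene symbols measured on the arrays. The list was drawn up with earlier results of these data known, and its genes were then found by symbol among the probes of the scanner files that are not controls. All 38 were found, on 50 probes, and were divided into 25 genes known mainly as targets of type I interferon and 13 known mainly as targets of interferon gamma. By the study's methods the RNA was extracted from livers of male CD1 mice. Whether tumour, surrounding tissue or both were taken is not stated there. Group C (Control) received saline in infancy and, in adult life, weekly hydrodynamic gene delivery of the empty plasmid, that is, a rapid injection of a large volume into the tail vein. Group T (DEN) received diethylnitrosamine (DEN), a liver carcinogen, in place of saline, and the same empty plasmid. Group G (Gas1) received DEN and a plasmid that carries the growth arrest gene Gas1 under the broadly active CAG promoter, which reaches only the part of the liver cells that takes up the plasmid, most of them near blood vessels. All 3 groups thus share the weekly delivery and the plasmid backbone. The labels state an age of 10 weeks, close to the age the study's methods give for mice when obtained, and by its account the livers were taken later in adult life.

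There were 4 Control, 5 DEN and 6 Gas1 arrays. By their RNA codes 2 Control arrays came from 1 liver and so did 2 DEN arrays, and each such pair was averaged, which left 13 livers: C1 to C3, T1 to T4 and G1 to G6. Between 15707 and 29765 spots per array were well above background. All 6 hepatocyte markers looked at were well above background on every array. The Gas1 probes read 6.53 ± 0.20 (SD, n = 3) in group C, 6.54 ± 0.09 (n = 4) in group T and 6.61 ± 0.11 (n = 6) in group G on the log2 scale, and whether they lie in the part that the plasmid carries was not tested, so they do not check the labels.

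Interferons are secreted when a cell senses foreign nucleic acid or when lymphocytes are activated. Genes induced by type I interferons often carry a promoter element called ISRE, which is bound by a complex that contains Stat2 and Irf9, whereas many genes induced by interferon gamma carry an element called GAS. In the liver, hepatocytes, Kupffer cells and endothelial cells all respond. The type I targets include RNA sensors, enzymes that block viral RNA and the ubiquitin-like protein Isg15, and the gamma targets include guanylate-binding proteins, immunity-related GTPases, parts of the immunoproteasome and chemokines that attract T cells. Many members answer to both kinds of interferon, so the division is one of emphasis.

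The sequences before the start sites of 6 members are printed because these genes carry the values described next: Oas1a is the gene that passed the test, Isg15 and Ifit3 are among the type I members that vary most between livers, Igtp and Cxcl9 are the gamma-type members that vary most, and Irf1 is the gamma-type regulator with a GAS core. Each run is the 200 bases before the start site, read 5′ to 3′ on the gene's own strand, from RefSeq on GRCm38.p6. Capitals mark the letters GAAANNGAA, used as the core of an ISRE, or TTCNNNGAA, used as the core of a GAS element, on either strand.
Oas1a, chr5:120907526-120907725, reverse strand: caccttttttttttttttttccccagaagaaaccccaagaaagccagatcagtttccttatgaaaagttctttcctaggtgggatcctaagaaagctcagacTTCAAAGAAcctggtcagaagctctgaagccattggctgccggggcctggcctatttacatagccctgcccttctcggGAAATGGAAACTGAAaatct
Isg15, chr4:156200819-156201018, reverse strand: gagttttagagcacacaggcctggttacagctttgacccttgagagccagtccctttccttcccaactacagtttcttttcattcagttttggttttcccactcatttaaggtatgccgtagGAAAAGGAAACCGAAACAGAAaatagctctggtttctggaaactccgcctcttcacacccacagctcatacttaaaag
Ifit3, chr19:34583329-34583528, forward strand: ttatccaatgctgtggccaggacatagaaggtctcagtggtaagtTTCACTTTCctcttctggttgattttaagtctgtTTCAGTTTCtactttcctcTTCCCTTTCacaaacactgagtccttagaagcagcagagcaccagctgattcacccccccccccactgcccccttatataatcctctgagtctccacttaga
Igtp, chr11:58199356-58199555, forward strand: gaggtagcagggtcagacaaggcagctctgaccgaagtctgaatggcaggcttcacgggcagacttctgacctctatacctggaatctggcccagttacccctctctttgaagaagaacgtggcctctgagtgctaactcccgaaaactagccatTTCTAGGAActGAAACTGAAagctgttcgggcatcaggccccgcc
Cxcl9, chr5:92328080-92328279, reverse strand: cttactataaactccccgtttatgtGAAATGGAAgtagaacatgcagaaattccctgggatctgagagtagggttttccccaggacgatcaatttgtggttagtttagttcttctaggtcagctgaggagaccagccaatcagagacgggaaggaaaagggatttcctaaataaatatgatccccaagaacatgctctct
Irf1, chr11:53769814-53770013, forward strand: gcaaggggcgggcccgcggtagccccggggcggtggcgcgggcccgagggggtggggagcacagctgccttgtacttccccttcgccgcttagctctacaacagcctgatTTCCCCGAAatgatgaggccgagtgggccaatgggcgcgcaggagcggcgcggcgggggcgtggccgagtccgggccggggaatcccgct

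Both cores were searched in the window from 250 bases before to 50 after the start site, which was given for 29 of the 38 members as 33 promoters. The ISRE core stood in 19 of these 33 promoters (57.6%), against 8.56% of all 32851 mouse promoters of the same length. The GAS core stood in 7 of 33 (21.2%), against 8.30% of all. By class, the ISRE core was found in 12 of 20 type I and 7 of 13 gamma-type promoters, and the GAS core in 3 of 20 and 4 of 13. In Oas1a, 2 overlapping ISRE cores start 20 and 14 bases before the start site and a GAS core starts 98 bases before it. In Isg15, 3 overlapping ISRE cores start 78, 72 and 66 bases before the start site. Igtp holds a GAS core and an ISRE core 45 and 34 bases before its start site. These are matches of letters only, and binding was not measured. The windows of Tap1 and Psmb9, which are transcribed away from each other, overlap.

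Of the 38 members, 20 were well above background on all 15 arrays and 32 on at least 8 of them. Oas3, Mx1 and Gbp6 were so on none, Oas1g on 2 arrays, and Ifit2 and Oas2 on 4 each. Levels of these 6 genes lie near the background, and differences in them are given as signal differences, not as folds. Bst2, a membrane protein that tethers virus particles, had no usable spot in liver G3.

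The most marked feature of the members was the spread among the 3 control livers. Liver C1 was the highest of the controls in 35 of 38 members (92.1%), in 23 of 25 type I and 12 of 13 gamma-type genes, while it was the highest of the controls in 33.7% of all genes. Over all 13 livers, C1 held the highest value in 14 of the 37 members measured in every liver, 10 of them gamma-type, against 11.7% of all genes. Liver C2 held the lowest value in 20 of 37, against 12.6% of all genes. The 1 array of C2 had the fewest spots well above background of the series (15707). C1 had 18354 on its array, and the arrays of C3 had 27681 and 21287. The part of this in the ranks was not tested. Averaged over the type I members, C1 lay 0.31 above the control mean on the log2 scale, C2 0.22 below it (-0.22) and C3 0.09 below it (-0.09). Over the gamma-type members the same livers lay at 0.43, -0.35 and -0.08. C1 was hybridised on slide 2 and C2 on slide 1, and C3 on both, so that slide and liver are partly mixed in group C. In RNA of liver tissue, fewer cells of a type and less RNA per cell cannot be told apart.

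**Figure D1:**
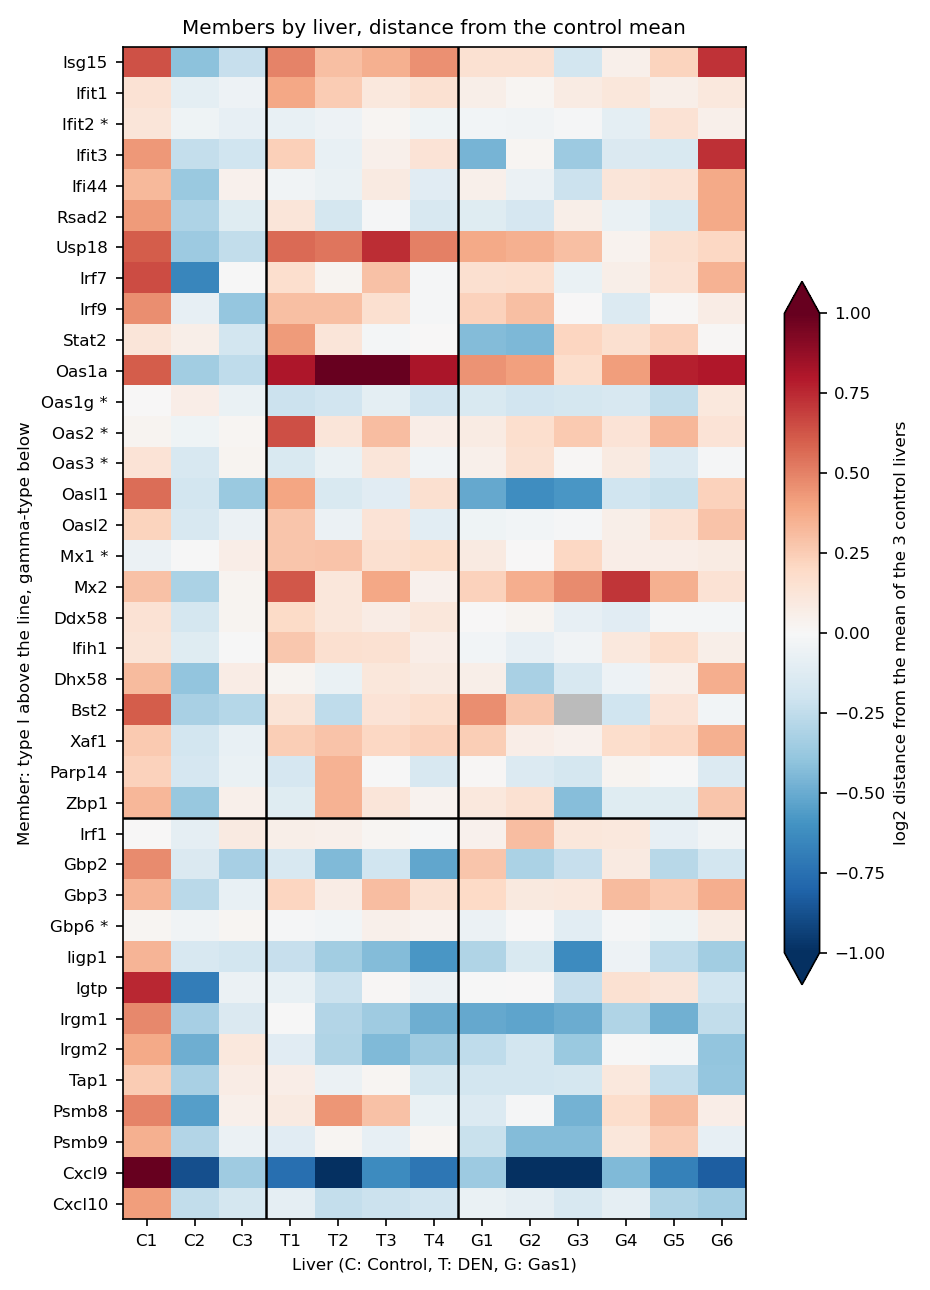
Distance of each of the 38 members (rows) from the mean of the 3 control livers, in log2 units by colour, for the 13 livers (columns). Red is above and blue below the control mean, colours end at 1 and -1, grey is a missing value, and an asterisk marks 6 genes that are well above background on fewer than 8 of 15 arrays. The column of C1 is mostly red in both classes and that of C2 mostly blue.

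Cxcl9, a chemokine for activated T cells induced by interferon gamma, varied most. Its signal was 8.97 in C1, 6.86 in C2 and 7.38 in C3, it lay at 6.98, 6.70, 7.11 and 7.01 in T1 to T4, and it ran from 6.62 over a median of 6.99 to 7.38 in group G. C1 thus stood above every other liver, and the livers of groups T and G lay within or just below the range of the other 2 controls. The mean difference of group T from group C was -0.78 (SE 0.37, limma adjusted p = 0.26), and without C1 it was -0.17 (SE 0.22, adjusted p = 0.77). Igtp, an immunity-related GTPase, had 10.71 in C1, 9.26 in C2 and 9.89 in C3. In group T it read 9.88, 9.74, 9.96 and 9.89, and in group G it ran from 9.72 to 10.11 with a median of 9.95. All 10 livers that received DEN fell between C2 and C1, and neither difference from group C passed the test (difference -0.09, SE 0.24, adjusted p = 0.89 for T; -0.02, SE 0.22, adjusted p = 0.98 for G).

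C1 was also the highest liver in most other gamma-type members. Psmb8, a catalytic subunit of the immunoproteasome, read 9.63 in C1, 9.19 in C3 and 8.59 in C2, and the group means of T (9.32 ± 0.22, n = 4) and G (9.12 ± 0.27, n = 6) lay close to that of C (9.14 ± 0.52, n = 3). Irgm1, a GTPase that acts in autophagy and in defence against intracellular bacteria, read 9.31, 8.68 and 8.49 in C1, C3 and C2, 8.54 ± 0.21 in group T and 8.40 ± 0.12 in group G. It was lower in G than in C by 0.43 (log2 difference -0.43, SE 0.15), which did not pass after adjustment (limma adjusted p = 0.25) and turned to 0.28 under median scaling. Gbp2, a guanylate-binding protein, read 7.65 in C1 and 7.03 and 6.84 in C2 and C3, with 6.84 ± 0.18 in T and 7.07 ± 0.24 in G. Liver by liver, T1 to T4 read 9.22, 9.57, 9.43 and 9.07 for Psmb8, 8.83, 8.54, 8.47 and 8.34 for Irgm1 and 7.01, 6.73, 6.97 and 6.66 for Gbp2. Group G ran from 8.66 to 9.45 with a median of 9.16 for Psmb8, from 8.30 to 8.58 with a median of 8.34 for Irgm1 and from 6.86 to 7.45 with a median of 6.96 for Gbp2. For each of these 3 genes no liver of groups T and G reached C1. Irf1, the transcription factor that is itself an early gamma target, was close to level, at 7.86, 7.77 and 7.95 in the controls and between 7.78 and 8.17 in the other livers.

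Oas1a, an enzyme that makes the 2-5A messenger which switches on RNA decay, was the only member that passed the test in any comparison. It read 7.43 in C1, 6.48 in C2 and 6.57 in C3. In T1 to T4 it read 7.63, 7.96, 8.03 and 7.64, and in group G it ran from 7.001 over a median of 7.26 to 7.63. Every liver of group T lay above every control liver and above every liver of group G (the closest being T1 and G6), and the 6 livers of group G lay above C2 and C3 while C1 stood among them. Oas1a rose in group T against group C by 0.99 on the log2 scale (SE 0.21, 1.98-fold, limma adjusted p = 0.036). The difference of G from T was -0.48 (SE 0.18, adjusted p = 0.36), and that of G from C was 0.51 (SE 0.20, adjusted p = 0.30), so neither passed.

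The Oas1a call rested on a narrow margin. It was kept in 17 of 27 alternative settings, with a difference from 0.81 to 1.85 and an adjusted p from 0.0049 to 0.20, and its direction was the same in all 27. Leaving out C2 (adjusted p = 0.11), C3 (0.082), T2 (0.081), T3 (0.097) or T4 (0.071) ended the call, and leaving out C1 widened the difference to 1.29 (adjusted p = 0.013). The 2 Oas1a probes differed in size, at 0.57 for the probe at chr5:121348338-121348397 and 1.41 for the probe at chr5:121346735-121346794 (positions on mm9 as the files give them). In a limma fit of single probes neither passed (adjusted p = 0.052 and 0.055). They were well above background on 12 and 14 of the arrays. At least 1 of them was so on 3 of the 4 Control arrays, all 5 DEN and all 6 Gas1 arrays. The 1.98-fold rise thus includes a Control array on which neither probe was well above background. Within slides the difference was 1.26 on slide 1 and 0.76 on slide 2. Oas1a belongs to a cluster of closely similar Oas1 genes, and signal that its probes may pick up from the other copies was not tested.

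Among all genes, 1.22% were called higher and 1.17% lower in group T against group C, so that 1 call among 38 members is near the background. At an unadjusted p under 0.05, limma gave 6 members higher, all type I (Ifit1, Mx1, Oas1a, Oas2, Usp18 and Xaf1), where the share over all genes was 10.8%. At the same threshold 2 were lower, Iigp1 and Oas1g, where the share over all genes was 9.48%. The livers of group T lay wholly above those of group C in 3 members (Mx1, Oas1a and Oas2) and wholly below in 2 (Iigp1 and Oas1g), with 10.5% and 8.61% of all genes as background. Mx1, Oas1g and Oas2 are among the genes near the background. The median difference was 0.12 over the type I members, of which 20 of 25 were above 0, and -0.09 over the gamma-type members, of which 9 of 13 were below 0, with 0.01 over all genes. Both directions depended on the scaling and on the genes they were set against. Relative to the median of all genes the type I and gamma-type medians were 0.11 and -0.09, and they were 0.39 and 0.34 under median scaling and 0.60 and 0.17 with processed signals. Relative to the genes well above background on all arrays they were 0.11 and -0.10, and they were -0.13 and -0.18 under median scaling and 0.10 and -0.32 with processed signals.

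Usp18, a protease that removes Isg15 from proteins and restrains signalling at the type I receptor, had the second largest rise in value among the members. It read 7.21 in C1, 6.24 in C2 and 6.36 in C3, then 7.17, 7.14, 7.34 and 7.11 in T1 to T4, and from 6.63 over a median of 6.86 to 6.98 in group G. All livers of group T lay above all livers of group G, and both groups lay between C1 and the other controls, except for T3, which lay above C1. Usp18 was well above background on 3 of the 4 Control arrays and on all arrays of the other groups. The difference of T from C was 0.59 (SE 0.18, limma adjusted p = 0.099), and without C1 it was 0.89 (SE 0.10, limma adjusted p = 0.0051). C1 was singled out after its high values in the members were seen, so the values without it are a description only. Isg15 itself read 8.63, 7.58 and 7.76 in C1 to C3, 8.49, 8.29, 8.35 and 8.45 in group T, and from 7.81 to 8.72 in group G. The T livers lay close together above C2 and C3 and below C1, and the difference did not pass (0.40, SE 0.23, adjusted p = 0.36; without C1 0.72, SE 0.18, adjusted p = 0.10). Its 2 probes differed in size, at 0.73 and 0.07.

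**Figure D2:**
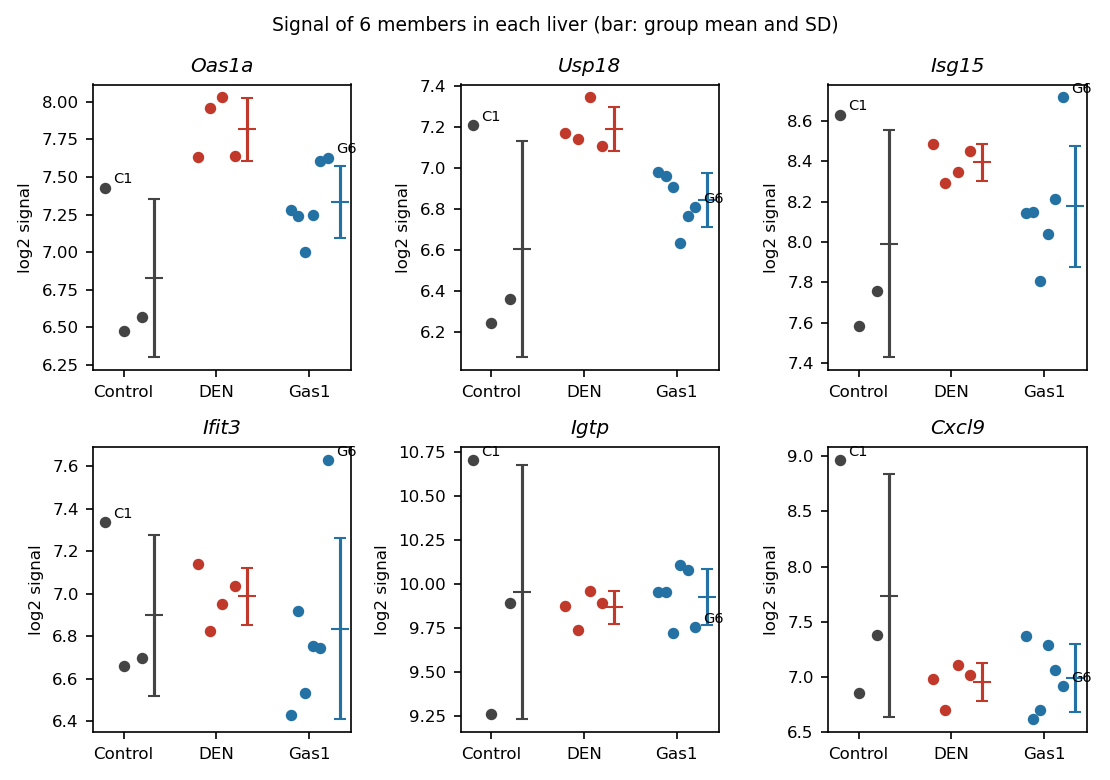
Signal (log2) of 6 members in each liver, by group, with a bar at the right of each group for its mean and SD (3, 4 and 6 livers). The livers of group T lie close together, C1 stands above the other controls in all 6 genes, and G6 is the highest liver for Isg15 (8.72) and Ifit3 (7.63).

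Because C1 stood apart, the comparison was repeated against C2 and C3 only. At an unadjusted p under 0.05, 13 members were then higher in group T, 12 of them type I and the other Gbp3, against 8.22% of all genes, and none was lower, against 7.12%. After adjustment 2 passed, Oas1a and Usp18, against 0.272% of all genes, and 0 were lower, against 0.295%. All 4 livers of group T lay above both C2 and C3 in 15 members, 14 of them type I, against 14.4% of all genes, and below both in 2, against 11.5%. Since C1 was the highest control in 35 of the 38 members and in 33.7% of all genes, leaving it out raises the difference in the members more than in the genes they are set against, and these counts are a description only. Without C2 in place of C1, 4 members were higher at an unadjusted p under 0.05, all type I (Ifit1, Mx1, Oas1a and Usp18), against 8.86% of all genes, and 6 were lower, all gamma-type, against 9.26%. Without C3 the same 4 were higher, against 10.3%, and 4 were lower, against 8.89%. The median difference over the type I members was 0.26 without C1 and over the gamma-type members 0.02. Without C2 the medians were -0.02 and -0.31, so that the sign of either class depended on which controls were used. Against C2 and C3 the 6 livers of group G lay above both in 9 members, 8 of them type I, against 4.54% of all genes.

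**Figure D3:**
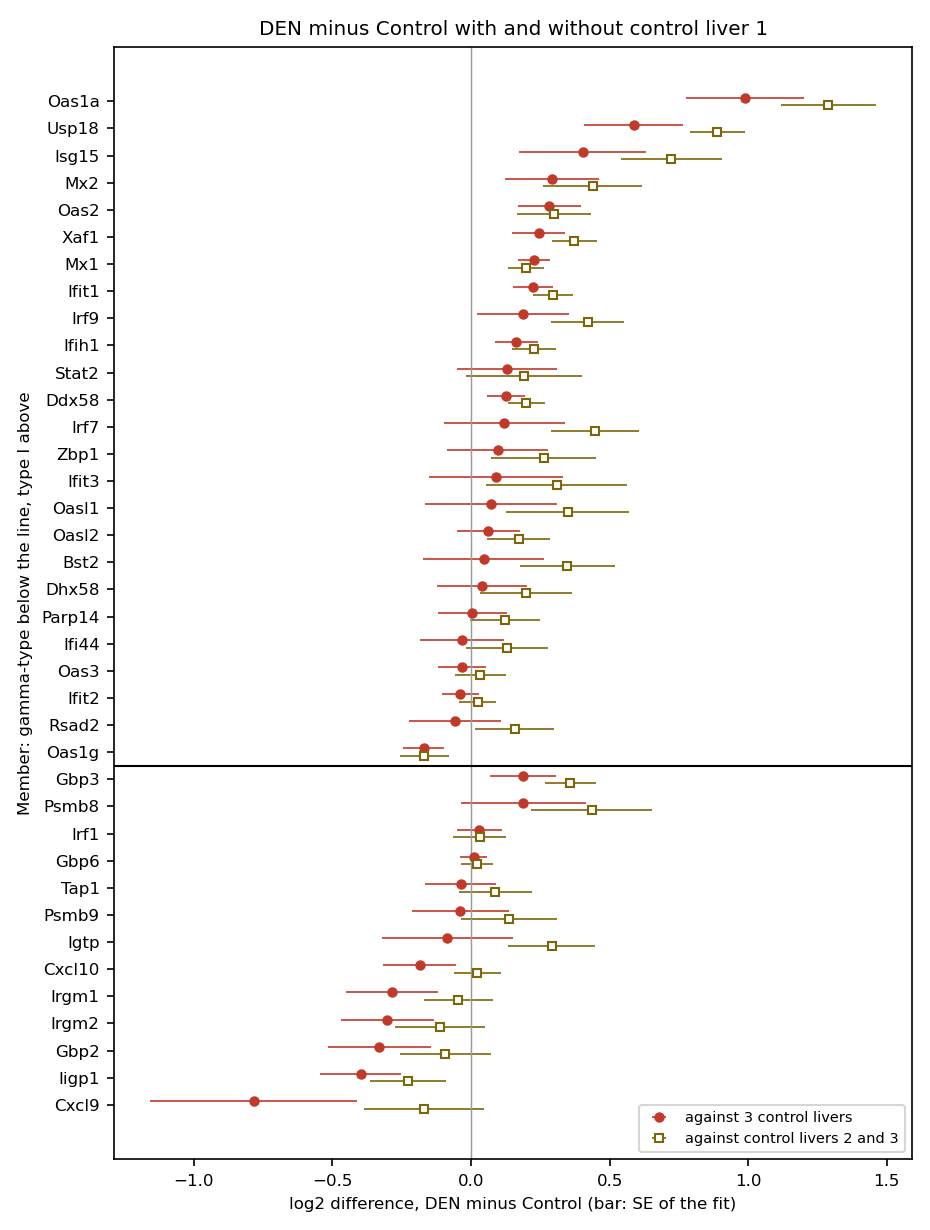
Difference of group T from group C (log2, horizontal) for each member with its SE, against all 3 control livers (filled) and against C2 and C3 only (open). Type I members are above the line and gamma-type members below it. Leaving out C1 moved most members to the right, Oas1a from 0.99 to 1.29 and Cxcl9 from -0.78 to -0.17.

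Averaged over each class, the livers of group T were more alike than those of the other groups. Over the type I members they lay 0.10 to 0.23 above the control mean (mean 0.16 ± 0.06, SD, n = 4), and over the gamma-type members between -0.23 and -0.09 (mean -0.16 ± 0.06). Group G lay at 0.07 ± 0.09 (n = 6) over the type I and at -0.15 ± 0.11 over the gamma-type members. Over the control livers the difference between the classes (gamma-type minus type I) lay between -0.13 and 0.12, and in the 4 livers of group T it was between -0.32 and -0.31. In group G it ran from -0.42 in G6 to -0.03 in G4, with a median of -0.21, and so overlapped both. These are descriptions over chosen genes and carry no test. Under median scaling the range of group T, -0.19 to -0.14, overlapped that of the controls, -0.23 to 0.16.

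**Figure D4:**
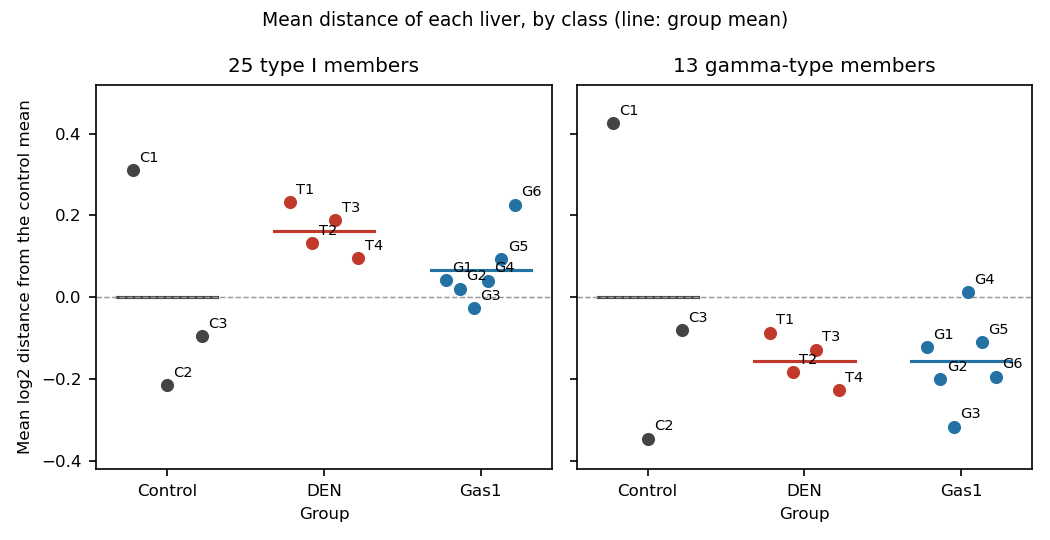
Mean log2 distance of each liver from the control mean (vertical) over the 25 type I members (left) and the 13 gamma-type members (right), by group, with a line at each group mean. C1 is the highest liver in both panels, the livers of group T lie above 0 on the left and below 0 on the right, and G6 stands highest of group G on the left (0.23) and not on the right (-0.19).

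Whether the Gas1 plasmid changed the members in livers that received DEN was asked by comparing G with T. No member was called higher or lower by limma, against 0.0272% and 0.0999% of all genes. At an unadjusted p under 0.05, 5 members were lower, all type I (Ddx58, Ifit1, Mx1, Oas1a and Usp18), where the share over all genes was 6.73%, and 0 were higher, where it was 4.13%. The livers of group G lay wholly below those of group T in 3 members (Ddx58, Oas1a and Usp18) and wholly above in none, against 2.03% and 1.09% of all genes. Ddx58, the RNA sensor also known as RIG-I, ran from 7.34 to 7.48 in group G against 7.54 to 7.65 in group T, a difference of -0.16 (SE 0.06, adjusted p = 0.33). Of its 2 probes, 1 was well above background on 2 arrays only (difference -0.15) and the other on all 15 (-0.17). Ifit1, which binds foreign RNA, read 6.38 ± 0.03 in group G and 6.54 ± 0.12 in group T (difference -0.15, SE 0.06, adjusted p = 0.39). For Usp18 the difference was -0.35 (SE 0.15, adjusted p = 0.43).

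The median difference of G from T was -0.10 over the type I members, of which 16 of 25 were below 0, and 0.03 over the gamma-type members, of which 8 of 13 were above 0, beside -0.01 over all genes. The type I median stayed below 0 in all 25 settings in which it was computed, from -0.16 to -0.05, but other genes moved too. With processed signals, which gave -0.16, the genes well above background on all arrays had a median of -0.14. Relative to those genes the type I median was -0.03 with processed signals and -0.08 in the main fit. Within slides the type I median was -0.03 on slide 1 and -0.12 on slide 2. Oasl1, a brake on Irf7 translation, read 10.27, 9.53 and 9.34 in C1 to C3, 10.10, 9.56, 9.60 and 9.87 in T1 to T4, and 9.09 to 9.94 with a median of 9.34 in group G. Its groups overlapped. On average it was 9.78 ± 0.26 in T and 9.39 ± 0.32 in G (difference -0.39, SE 0.20, adjusted p = 0.51). Gbp2 was the gamma-type member with the largest rise in value, from 6.84 to 7.07 (difference 0.22, SE 0.16, adjusted p = 0.65). Mx2, a dynamin-like antiviral GTPase, differed little between these groups, with 8.06, 7.55, 7.83 and 7.49 in T1 to T4 (7.73 ± 0.26) and 7.82 ± 0.20 in G.

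Within group G, liver G6 stood out in type I members. It held the highest value of all 13 livers in 9 of 37 members, 7 of them type I, against 7.67% of all genes. Ifit3, an RNA-binding partner of Ifit1, read 7.34, 6.66 and 6.70 in C1 to C3 and 7.14, 6.82, 6.95 and 7.04 in T1 to T4. In group G it read 7.63 in G6 and between 6.43 and 6.92 in the other livers of the group. Rsad2, which makes a chain-terminating nucleotide, read 7.09 in G6 and no more than 6.77 in the others, and Isg15 read 8.72 against at most 8.21. Of all other livers C1 came closest for Ifit3, at 7.34, and it exceeded G6 for Rsad2, at 7.14. Of the 9 members, Oas1g and Gbp6 lie near the background, and among the 19 members well above background on all arrays and measured in every liver G6 was the highest in 2, against 5.15% of such genes, where C1 was the highest in 10, against 11.7%. Of the gamma-type members, Gbp3 and Gbp6 were also highest in G6, while Tap1 and Cxcl10 were lowest there.

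Group G was also compared with group C, from which it differs by both DEN and the Gas1 plasmid. No member was called by limma, against 0.177% of all genes called higher and 0.25% called lower. At an unadjusted p under 0.05, 2 were higher (Mx2 and Oas1a) where the share over all genes was 6.17%, and 1 was lower (Irgm1) where it was 7.02%. Only Oas2 lay wholly above the controls, against 2.85% of all genes, and 0 members lay wholly below, against 3.01%. Mx2 read 7.74, 7.12 and 7.46 in C1 to C3 and from 7.59 to 8.15 in group G (difference 0.38, SE 0.16, adjusted p = 0.32). Irf7, the amplifier of type I interferon genes, read 7.87, 6.56 and 7.21 in C1 to C3, 7.38, 7.24, 7.51 and 7.20 in T1 to T4, and 7.15 to 7.56 with a median of 7.37 in group G. Its control livers spanned all other livers. The comparisons of T with C and of G with C share the control livers, so that C1 bears on both.

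Of the genes upstream of the members and of other interferon targets, 110 were measured from 4 lists. None of the 15 interferon genes was well above background on all arrays, and 8 were so on none, Ifng among them. Of the 15 receptor and signalling genes, 5 were higher in T than in C at an unadjusted p under 0.05, against 10.8% of all genes, among them Socs3, an inhibitor of cytokine signalling, and Ifngr2, a chain of the gamma receptor, and 0 passed after adjustment in limma. Socs3 read 7.25 in C1, 6.30 in C2 and 6.67 in C3 and between 7.11 and 8.33 in group T. Of the 13 sensors and regulators, 1 was higher and 3 were lower at the unadjusted threshold, against 10.8% and 9.48% of all genes, and 0 passed in limma. Socs1, an inhibitor of cytokine signalling, and Il28ra, a receptor chain, had no array with signal well above background.

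Of 67 other interferon-stimulated genes, 2 were higher and 2 lower in T than in C after adjustment over all genes, against 1.22% and 1.17% of all genes. Oas1b, a neighbour of Oas1a, was 8.97 ± 0.18 in C and 9.38 ± 0.07 in T (difference 0.40, SE 0.08, adjusted p = 0.026). Eif2ak2, the RNA-activated kinase PKR, was 7.08 ± 0.10 in C and 7.45 ± 0.09 in T (difference 0.37, SE 0.08, adjusted p = 0.037), and C1, at 7.08, did not stand above the other controls. Lgals9, a galectin, was lower, 10.59 ± 0.18 in C and 9.89 ± 0.26 in T (difference -0.70, SE 0.15, adjusted p = 0.034). Ly6a, a surface protein of lymphocytes and progenitor cells, was lower by 3.16 (difference -3.16, SE 0.73, adjusted p = 0.045). It read 12.94, 10.04 and 8.26 in C1 to C3, 7.44, 6.97, 7.61 and 7.01 in T1 to T4 and 7.003 to 7.53 in group G. All livers of T and G lay below the lowest control, but the controls were far apart, so the size of the difference is uncertain. In the other comparisons 0 of the 110 genes passed, with 1 higher and 7 lower for G against T and 7 higher and 13 lower for G against C at an unadjusted p under 0.05 by limma. The shares over all genes were 4.13% and 6.73% for G against T and 6.17% and 7.02% for G against C.

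C1 was the highest control in 41 of 66 of these other targets measured in all controls (62.1%), beside 92.1% of the members, a difference that was not tested. It was the highest in 5 of 14 interferon genes, 6 of 14 receptor and signalling genes and 6 of 12 sensors. Ccl5, a T cell chemokine picked out after its values were seen, read 9.67 in C1 and 6.76 and 7.08 in C2 and C3. Of the T and NK cell markers, 3 of 11 were well above background on all arrays, and the mean signal of all 11 was 6.69 in C1 and 6.62 and 6.60 in C2 and C3. Over all 43 markers of 7 cell types, limma called 1 higher (Emr1, macrophage) and 1 lower (Ttr, hepatocyte) in T against C. The shares over all genes were 1.22% and 1.17%. Within their lists Cd68 (-0.25) and Apoa1 (0.54) went the other way. In the other comparisons 0 passed. At an unadjusted p under 0.05, 11 were higher and 3 lower for T against C, against 10.8% and 9.48% of all genes. For G against T 1 was higher and 4 lower, against 4.13% and 6.73%. For G against C 6 were higher and 3 lower, against 6.17% and 7.02%.

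The mean signal of the 8 Kupffer cell and macrophage markers ran from 7.35 to 7.70 in C, from 7.61 to 8.08 in T and from 7.59 to 7.98 in G, and that of the 4 plasmacytoid dendritic cell markers from 6.501 to 6.63, 6.66 to 6.77 and 6.595 to 6.76. Of the T and NK cell markers, Gzmb and Klrb1c had no array well above background. Of the plasmacytoid markers 1 of 4 was well above background on all arrays, and C1 was the highest control in 5 of the 8 Kupffer cell and macrophage markers. It was so in 5 of 11 T and NK cell, 2 of 4 plasmacytoid and 2 of 6 hepatocyte markers. For B cell, neutrophil and sinusoidal endothelial markers the counts were 1 of 4, 1 of 5 and 0 of 5. The mean of the 5 neutrophil markers ran from 6.28 to 6.76 in C, from 6.44 to 7.43 in T and from 6.35 to 6.72 in G. Of these, S100a9, a calcium-binding protein of neutrophils, had a difference of 1.36 for T against C (SE 0.47, limma adjusted p = 0.13). For G against T it had -0.92 (SE 0.39, limma adjusted p = 0.42). S100a8, its partner, had 0.58 (limma adjusted p = 0.19) and -0.44 (limma adjusted p = 0.44). Retnlg, Ngp and Camp lay below 0 in T against C (-0.02, -0.31 and -0.19). In G against T these 3 read -0.07, 0.30 and -0.31. The median over the 5 neutrophil markers was -0.02 for T against C. The part of these cells in the values of the members was not tested.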

How the data were processed

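RNA of mouse livers was hybridised to single-colour Agilent 8x60K arrays. The authors deposited the scanner output, in which each spot has a mean and a background median intensity in the green channel, extracted with Feature Extraction 10.7.3.1 on the mm9 design, and a value table of log2 signals, which per the study's methods the authors made in R by normexp background correction and quantile normalization (offset not stated) and which was used as an alternative only. Probe positions are those of mm9.

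Mean and background intensities were corrected with normexp (offset 50) on all 62976 spots. After log2 transformation, spots with an outlier flag (218 to 3692 per array) were set to missing and the 59305 non-control spots were brought to common quantiles. Spots of a probe were averaged, and the 29522 probes with a symbol were reduced to 22032 genes by the mean of probe values centred per probe. Arrays that carry 1 RNA code were averaged. Their spread between arrays (SD 0.146 for the Control pair, 0.143 for the DEN pair) was below that of other pairs of their groups (0.291 to 0.314 and 0.235 to 0.434). No spot was saturated. The study's methods name the multtest package for the arrays, with no test or threshold. Its results give a threshold of p under 0.05 for the arrays, which a supplementary figure legend calls adjusted. One mean per group was fitted here with limma 3.58.1 in R 4.3.3, and p-values were Benjamini-Hochberg adjusted over all 22032 genes, called at 0.05. Replicates are livers of different mice as far as the labels tell, and p-values measure the spread between them. The method was tested on simulated data.

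The members and lists were chosen with earlier results of these data known. Values liver by liver were given for members with an adjusted p under 0.05 in any comparison and for the 12 with the largest range over the livers among those well above background on at least 8 arrays; other members named were picked by their counts or after their values were seen. Of the pathway genes, those with an adjusted p under 0.05 were named. Promoters came from RefSeq (GRCm38.p6). Alternatives were other background, scaling and probe rules, the value table, the replicate block, other tests and leaving out each liver. Array depth has no counting error, so the number of livers limits the precision. The labels name TRIZOL for the extraction, the study's methods a column kit. Some items are not reported here.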

Additional observations from a re-analysis of the deposited data

Results flagged for a closer look

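A gap test (Dixon) was made in groups T and G for each member and for the mean of each class, 80 sets in all, and chance alone flags about 1 set in 20. In 2 sets a liver lay apart from the others of its group. Oas1g was highest in liver G6, at 6.17 on the log2 scale against 5.91 in the next liver, but its signal was well above background on only 1 array of group G. Bst2 was lowest in liver T2, at 11.59 against 11.97 in the next liver of group T, and all 5 arrays of that group read it well above background.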

How the results depend on the processing

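The number of members called higher in T against C was 1, and it was 4 with all 15 arrays taken as separate livers (Ifit1, Mx1, Oas1a and Usp18), 7 under median scaling (Ddx58, Ifih1, Irf9, Isg15, Oas1a, Usp18 and Xaf1), and 0 with processed signals, with cyclic loess, with only the 2 groups in the fit and with a two-sided t-test after Benjamini-Hochberg adjustment. By the t-test without adjustment 2 were higher (Mx1 and Oas1a) and 1 lower (Oas1g) in T than in C, 5 lower in G than in T, and 1 higher (Oas2) and 1 lower (Irgm1) in G than in C. With the replicate block in the limma fit the count was 0, and Oas1a had a difference of 1.01 (adjusted p = 0.071). The 10 same-numbered pairs had correlations of -0.31 to 0.25, only 4 of them over 0.1, so the numbers do not pair the livers. Leaving out 1 liver at a time gave 0 to 2 calls. The count was 0 without C2, C3, T2, T3 or T4, and 2 without C1 (Oas1a and Usp18) or without G3 (Mx1 and Oas1a). Over the same settings the type I median of T against C ran from -0.018 to 0.26 and the gamma-type median from -0.31 to 0.022. Median scaling moved the median of all genes in T against C to 0.12, and processed signals moved it to -0.40. Over the genes well above background on all arrays, median scaling moved the median to 0.65, so that these genes rose as well. The counts of members called under the alternatives are given here without the share of all genes called. They describe the settings and are no result about the members. Under median scaling the medians of T against C were 0.47 over all members, 0.51 over type I and 0.46 over gamma-type members, and those of G against C were 0.35, 0.33 and 0.35. Irgm1 in G against C turned from -0.43 to 0.28 under median scaling. The cause of these changes was not tested. No member was called in G against T or in G against C under any of the other alternatives that adjust p.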
